A study of Mus musculus with 44 samples.

Results

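The m6A methyltransferase complex genes were followed here: Mettl3, Mettl14, Wtap, Rbm15, Rbm15b, Zc3h13, Cbll1 and Mettl16, chosen by symbol from the gene count table as 8 of its 46831 genes. N6-methyladenosine (m6A) is a methyl mark on adenosines of messenger RNA. METTL3 is the catalytic subunit and forms a heterodimer with METTL14, which helps to hold the RNA. WTAP is the adaptor that brings the pair to nuclear speckles, RBM15 and RBM15B are RNA-binding proteins that recruit the complex to its targets, and ZC3H13 and CBLL1 (HAKAI) belong to the regulatory part of the complex. METTL16 is a separate methyltransferase that acts on the U6 small nuclear RNA and on hairpins of the Mat2a mRNA. In developing bone and cartilage, the writer complex is studied for its part in the balance between self-renewal and differentiation of skeletal stem cells.

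Long bones of C57Bl6 mice aged 3 days were the source of 8 sorted populations: the skeletal stem cell (SSC), its progenitors pBCSP and BCSP (bone, cartilage and stromal progenitors), and the downstream populations PCP, THY, BLSP, 6C3 and HEC. For each replicate, sorted cells gave an input library, which reports mRNA, and a library of RNA bound by an m6A antibody (IP), in the low-input protocol SLIM-seq. There were 32 wild-type (WT) libraries, from 8 populations, and 12 libraries titled Mettl3cko, from SSC, pBCSP and BCSP, with 2 replicates in each condition and no treatment in any. In the study, Mettl3cko denotes Mettl3 fl/fl mice carrying Col2a1-Cre, and their controls, called WT, are Mettl3 fl/fl mice without Cre, so that a floxed Mettl3 allele is shared by both. Cre is driven by the Col2a1 promoter, so recombination is limited to cells that express Col2a1 or descend from such cells. Per the study's methods, lower limbs of both sexes and several litters were used, and cells were sorted on CD45, Ter119, Tie2, CD51, Thy, 6C3, CD105 and CD200. The sample titles and the headers of the count table mark the Mettl3cko libraries, whereas all 44 libraries carry wild type as their genotype entry.

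Sequencing depth was similar between the groups: input totals ran from 19795666 to 44046651 counts in WT and from 30050178 to 35325482 in Mettl3cko. Marker genes and the genes of sort antigens were read beside the sort. Col2a1, the main cartilage collagen, lay between 67370 and 80840 CPM (library-scaled counts) in the 6 WT libraries of SSC, pBCSP and BCSP. Ptprc, which encodes the leukocyte antigen CD45 used to gate cells out, was at 0 in the 6 libraries of SSC, pBCSP and BCSP. Thy1 was at 0 to 0.3695 CPM in those 6 libraries and at 0.0573 to 37.9 CPM in the 10 downstream libraries. In the same order, Enpep (6C3) was at 2.05 to 5.41 and 4.09 to 53.5 CPM, and Itgav (CD51) at 29.9 to 64.3 and 57.8 to 126 CPM. Eng (CD105) was at 32.6 to 136 and 21.3 to 130 CPM, and Cd200 at 21.2 to 269 and 8.69 to 118 CPM. The IP libraries titled Mettl3cko stood apart, since their replicates correlated at only 0.624 to 0.663 (log2 CPM across genes), against 0.846 to 0.952 in WT IP.

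Mettl3, the targeted gene, was not called lower in any population or in the pooled fit of the libraries labelled Mettl3cko, and its levels there were lower in BCSP only. In SSC it was at 15.3 and 15.5 CPM in WT and at 16.7 and 18.4 CPM in the libraries labelled Mettl3cko. In pBCSP the values were 12.1 and 16.1 CPM in WT and 22.3 and 22.8 CPM in the libraries labelled Mettl3cko, so the groups did not overlap and the libraries labelled Mettl3cko lay higher. In BCSP they were 18.0 and 19.7 CPM in WT and 16.2 and 17.7 CPM in the libraries labelled Mettl3cko, so here the groups did not overlap either and the libraries labelled Mettl3cko lay lower. That separation in BCSP rests on the TMM scale, since by library total alone the groups overlap. The log2 differences were 0.19 ± 0.26 in SSC (adjusted p = 0.817), 0.69 ± 0.31 in pBCSP (adjusted p = 0.618) and -0.15 ± 0.29 in BCSP (adjusted p = 0.901, edgeR). With 2 libraries against 2, groups can separate without a difference, and the share of all genes that did so was not counted. Over the 3 populations the log2 difference was 0.25 ± 0.17 (SE), with an adjusted p of 0.45 by edgeR's quasi-likelihood test over 12 input libraries. The table counts whole genes, and which exons the floxed allele loses is not given in the sources used here, so the count does not check the deletion. Mettl3 lies on the minus strand at chr14:52294841-52305128 (GRCm38, GENCODE vM21), and 933 of its 5076 merged exon bases, or 18.4%, are also exon of Tox4 on the opposite strand. Whether counting used strand is not given in the sources used here, so reads in that stretch could belong to either gene. Tox4 lay between 70.2 and 142.6 CPM in the 22 input libraries, above Mettl3 in each. For these reasons the wording "labelled Mettl3cko" is kept throughout, and every direction below that compares the 2 genotypes compares libraries by their title and table header.

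The first question was how the writer genes are transcribed along the hierarchy. Per kilobase of merged exon, the adaptor Wtap had the highest input level of the members, at 16.02 ± 9.18 CPM per kb (SD over the 16 WT input libraries), followed by Rbm15 at 9.42 ± 3.75 and Zc3h13 at 6.50 ± 0.904. Cbll1 was at 4.52 ± 0.815 CPM per kb and Mettl3 at 2.60 ± 0.615. Mettl16, Mettl14 and Rbm15b had the lowest levels per length, at 1.65 ± 0.580, 1.27 ± 0.312 and 1.08 ± 0.428 CPM per kb. The adaptor and an RNA-binding member were thus more abundant in mRNA than the genes of the catalytic pair. Cells of a type that are fewer and cells that carry less RNA cannot be told apart in such sorted bulk samples.

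The other members lie at chr3:123368297-123386108 (Mettl14, minus strand), chr17:12966796-12994169 (Wtap, minus), chr3:107325421-107333673 (Rbm15, minus), chr9:106880918-106887428 (Rbm15b, minus), chr14:75284373-75344426 (Zc3h13, plus), chr12:31484829-31499616 (Cbll1, minus) and chr11:74770830-74828525 (Mettl16, plus), all protein-coding genes of GRCm38 counted over their exons, UTRs included. All 8 members passed the filter on low counts. Among the 8 WT populations, the input level of 1 member, Mettl16, differed in edgeR's quasi-likelihood test of any difference (adjusted p = 0.00082, threshold 0.05), while 40.1% of all 20060 genes tested did so. The count was 2 without replicate 1 of BCSP (Wtap added), replicate 2 of BCSP (Rbm15) or replicate 2 of PCP (Mettl3), and 3 without replicate 2 of 6C3 (Wtap and Rbm15). The contrast of SSC, pBCSP and BCSP with the 5 downstream populations called 3 members higher in the stem and progenitor group (Mettl3, Rbm15 and Mettl16) and none lower, beside 23.1% of all genes called higher and 28.3% called lower. The median log2 difference over all genes was -0.11 in this contrast, so the positive values of the members stand against a slightly negative bulk of genes. Over the members the median was 0.37, with 6 of 8 above 0. Only Mettl3 and Mettl16 kept this call in all 21 alternative settings run, which comprised other scalings, tests and filters, a block and each library left out in turn.

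**Figure D1:**
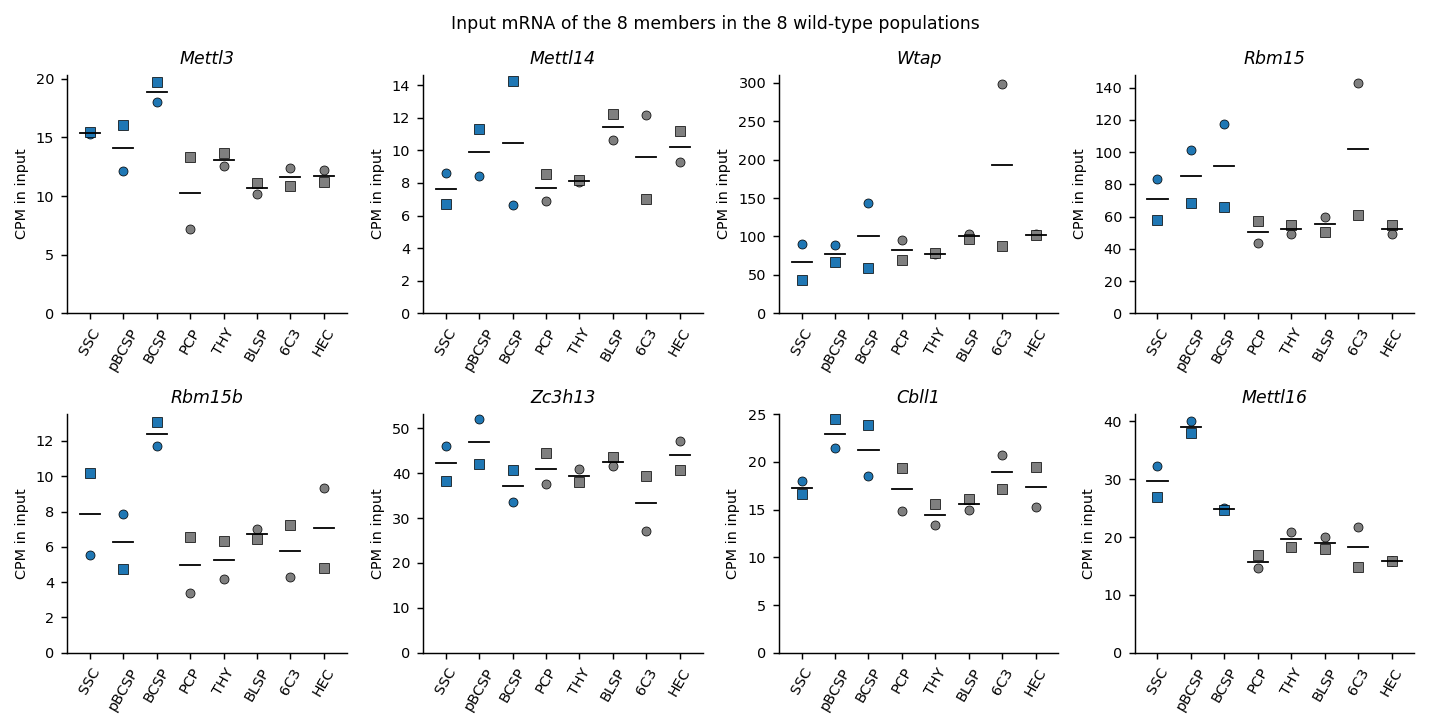
Input mRNA of the 8 members in the 8 wild-type populations. Each panel is a gene, the y axis is CPM from 0, circles are replicate 1, squares are replicate 2, bars are means, and blue marks SSC, pBCSP and BCSP; for Mettl16 the blue points lie above every grey point, and for Wtap replicate 1 of 6C3 stands alone at 298 CPM.

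Within the catalytic pair, Mettl3 was higher in the stem and progenitor populations and Mettl14 was not. Mettl3 ran from 12.1 to 19.7 CPM, with a median of 15.8, in the 6 libraries of SSC, pBCSP and BCSP, and from 7.16 to 13.6 CPM, with a median of 11.7, in the 10 downstream libraries. The ranges overlapped through a library of pBCSP. The log2 difference was 0.49 ± 0.15 (SE; adjusted p = 0.011, edgeR). In order of mean, Mettl3 was at 18.9 ± 1.21 CPM in BCSP, 15.4 ± 0.154 in SSC, 14.1 ± 2.80 in pBCSP, 13.1 ± 0.745 in THY, 11.7 ± 0.720 in HEC, 11.6 ± 1.10 in 6C3, 10.7 ± 0.678 in BLSP and 10.2 ± 4.34 in PCP (SD, n = 2 each). Along this order only the steps from BCSP to SSC and from THY to HEC had ranges that did not overlap. SSC itself was not called different from any other population for Mettl3: the log2 differences ran from -0.31 against BCSP to 0.57 against PCP, with adjusted p-values (edgeR) of 0.742 and 0.154 for these 2. Without replicate 2 of PCP that difference was 1.08 and passed, with an adjusted p of 0.025 (edgeR). Mettl14 lay between 6.63 and 14.3 CPM in the stem and progenitor libraries and between 6.87 and 12.2 CPM downstream, a log2 difference of -0.01 ± 0.19 (adjusted p = 1.0, edgeR), and none of its 7 neighbouring steps in rank separated.

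The adaptor and the RNA-binding members had no common pattern. Wtap was at 89.8 and 43.8 CPM in SSC, 88.5 and 66.5 in pBCSP, 142.9 and 58.6 in BCSP, and 298 and 88.1 in 6C3, whereas HEC, BLSP and THY had closely matched replicates. Replicates of SSC, BCSP and 6C3 were further apart than most population means. The log2 difference of Wtap between the groups was -0.38 ± 0.24 (adjusted p = 0.199, edgeR), and it passed without replicate 1 of BCSP (-0.64, adjusted p = 0.031) or replicate 2 of 6C3 (-0.50, adjusted p = 0.034). Rbm15 lay between 58.1 and 117 CPM in the stem and progenitor libraries and between 43.8 and 143 CPM downstream, and was 0.45 ± 0.17 higher on the log2 scale (adjusted p = 0.041, edgeR). This call was lost with library size alone as scaling (0.36, adjusted p = 0.105) and on leaving out any 1 of 10 of the 16 libraries, with a range from 0.29 (adjusted p = 0.185, without replicate 1 of BCSP) upward. The other libraries whose loss ended it were replicate 1 of SSC, pBCSP and PCP, replicate 2 of BLSP and 6C3, and both of THY and HEC. Rbm15b had its highest mean in BCSP, at 12.4 ± 0.951 CPM against 7.84 ± 3.29 in SSC, the next in order. Its log2 difference between the groups was 0.53 ± 0.23 (adjusted p = 0.069, edgeR), and the call passed at adjusted p-values of 0.033 to 0.042 without replicate 1 of SSC or HEC or replicate 2 of pBCSP, PCP or 6C3. Zc3h13 and Cbll1 were the most even, with highest over lowest population means of 1.41 and 1.59. The log2 difference of Zc3h13 was 0.07 ± 0.11 (adjusted p = 0.645) and -0.02 with library size alone as scaling, and that of Cbll1 was 0.29 ± 0.12 (adjusted p = 0.061, edgeR). Cbll1 passed without replicate 1 of BCSP (adjusted p = 0.047) or replicate 2 of PCP (adjusted p = 0.046).

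Mettl16, the enzyme that stands outside the complex, had the clearest difference along the hierarchy. Its 6 stem and progenitor libraries ran from 24.7 to 40.0 CPM, with a median of 29.7, and its 10 downstream libraries from 14.6 to 21.7 CPM, with a median of 17.5. On the TMM scale no library of one group reached the range of the other. The share of all genes that separate in this way was not counted. By library total alone, replicate 1 of BLSP lay slightly above replicate 2 of BCSP. The log2 difference was 0.80 ± 0.11 (adjusted p = 1.9e-05, edgeR). The mean was 39.0 ± 1.43 CPM in pBCSP, 29.7 ± 3.78 in SSC and 24.8 ± 0.229 in BCSP (SD, n = 2 each), and these 3 steps, down to THY at 19.6 ± 1.79, did not overlap. From THY to PCP, at 15.8 ± 1.65, every neighbouring pair overlapped. SSC was not called different from pBCSP (log2 difference -0.39 ± 0.22, adjusted p = 0.660) or BCSP (0.24 ± 0.22, adjusted p = 0.735, edgeR).

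Against single populations, SSC differed in 5 of 56 member and population pairs, beside 18.9% of all gene and population pairs. Mettl16 was higher in SSC than in PCP (log2 difference 0.89), HEC (0.93), 6C3 (0.72) and BLSP (0.63), with adjusted p-values of 0.0064, 0.0070, 0.024 and 0.044 by edgeR. With 2 libraries per population these calls were sensitive to single libraries. Without replicate 1 of SSC none of the 4 passed, and the differences were 0.77, 0.81, 0.60 and 0.52 (adjusted p = 0.069, 0.070, 0.168 and 0.249). The call against PCP was also lost without replicate 1 of PCP (0.78, adjusted p = 0.064) and that against HEC without either HEC library (0.92 and 0.93, adjusted p = 0.066 and 0.065). The call against 6C3 was lost without replicate 2 of SSC (0.83, adjusted p = 0.052) or replicate 2 of 6C3 (0.50, adjusted p = 0.213), and that against BLSP without any single library except those of PCP and 6C3 (0.52 to 0.75, adjusted p = 0.053 to 0.250). Against BLSP the call was also lost with DESeq2's size factors (0.63, adjusted p = 0.051) and with library size alone (0.30, adjusted p = 0.344). Wtap was lower in SSC than in 6C3, by -1.50 ± 0.47 (adjusted p = 0.026). Without replicate 1 of 6C3 that difference was -0.41 (adjusted p = 0.571), and without replicate 2 of SSC it was -1.08 (adjusted p = 0.202). Rbm15 was also lower in SSC than in 6C3 without replicate 2 of 6C3 (-0.98, adjusted p = 0.041, edgeR).

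Other properties moved with the stem and progenitor group. The summed level of the bone genes was 7544 to 14751 CPM in its 6 libraries. In the 10 downstream libraries it was 72277 to 135311 CPM, without overlap. The sum was led by the type I collagen gene Col1a1, at 4023 to 11140 CPM and 71690 to 134500 CPM. The other bone genes in the sum overlapped between the groups. In the same order, Bglap was at 0.8042 to 101.4 and 0.1159 to 52.63 CPM. Ibsp was at 53.11 to 3198 and 3.214 to 2772 CPM. Spp1 was at 538.7 to 4701 and 288.8 to 6223 CPM, and Alpl at 23.04 to 617.2 and 35.96 to 439 CPM. The cartilage genes summed to 79033 to 93098 CPM, with a median of 85489, and to 7933 to 87566 CPM, with a median of 19890. The summed level of 7 blood and immune genes was 13.6 to 24.4 CPM in the 6 stem and progenitor libraries and 21.4 to 113 CPM in the 10 downstream libraries. Of these genes, the globin gene Hba-a1 ran from 0.154 to 2.71 CPM in the former and from 7.16 to 62.7 CPM in the latter. The globin gene Hbb-bs likewise ran from 0 to 0.969 CPM and from 2.09 to 37.5 CPM. Not all of the 7 moved this way. The B cell gene Cd79a was higher in the stem and progenitor libraries, at 1.77 to 4.199 CPM against 0.142 to 0.728 CPM, and the macrophage genes Cd68 (4.70 to 19.1 against 2.78 to 9.63 CPM) and Lyz2 (2.13 to 9.24 against 1.26 to 8.46 CPM) overlapped. Ptprc was at 0 in the 6 libraries and at 0.0580 to 0.799 CPM downstream, and the T cell gene Cd3e was at 0 in the 6 libraries and in 8 of the 10. The summed level of 5 endothelial genes was 1.04 to 20.1 CPM and 1.06 to 93.0 CPM in the same groups. Mitochondrial transcripts took 0.427% to 0.717% of input counts in the former and 0.287% to 1.41% in the latter, and 1.56% to 2.92% and 4.53% to 9.10% of IP counts. Their part in the differences between populations, in input or in the IP ratio, was not tested.

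Likeness to Mettl3 was measured by correlation. Over the 16 WT input libraries, Pearson's r with Mettl3 (log2 CPM) was 0.62 for Rbm15b and 0.58 for Mettl16, and r between Wtap and Rbm15 was 0.60, or 0.25 without replicate 1 of 6C3. Among 15427 protein-coding genes the 5 most like Mettl3 were Mecr (0.91), Nsdhl (0.88), B230217C12Rik (0.88), Ddx17 (0.87) and Alg8 (0.86). Mecr encodes a reductase of mitochondrial fatty acid synthesis, Nsdhl an enzyme of cholesterol synthesis, Ddx17 an RNA helicase and Alg8 a glucosyltransferase of the endoplasmic reticulum. These values describe libraries that share populations, and nothing about common control was read from them.

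The other genes of the pathway were taken as a list of 19: the remaining complex subunit Virma, the S-adenosylmethionine synthase Mat2a, other RNA methyltransferases, erasers and readers. In the same contrast 6 of 19 were higher in SSC, pBCSP and BCSP and 1 was lower, beside 23.1% and 28.3% of all genes, with a median log2 difference of 0.14. The readers Hnrnpc (0.83 ± 0.09), Ythdf2 (0.52 ± 0.11), Ythdc2 (0.40 ± 0.16) and Ythdf3 (0.31 ± 0.11) were higher, with adjusted p-values of 2.1e-06, 0.0013, 0.049 and 0.029 by edgeR. Trmt112, which stabilizes METTL5, was 0.92 ± 0.11 higher (adjusted p = 4.0e-06), and the ribosomal RNA methyltransferase gene Zcchc4 was 0.56 ± 0.17 higher (adjusted p = 0.013). Igf2bp1, an m6A reader of fetal tissues, was the gene that was lower, by -2.55 ± 0.22 (adjusted p = 1.0e-07). Virma, Mat2a and both erasers, Fto and Alkbh5, were not called in this contrast.

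The second question was whether the writer mRNAs are themselves bound by the m6A antibody. In SLIM-seq the ratio of IP to input is taken for a whole gene, so it does not locate a site. An mRNA was called m6A-tagged in a population where IP exceeded input by a log2 fold change over 1 with an unadjusted p under 0.05 in an edgeR fit of that population's 4 WT libraries. Of 64 member and population pairs, 18 were tagged, beside 11.6% of all gene and population pairs. They belonged to 4 members: Rbm15 in 7 populations, Wtap in 6, Rbm15b in 3 and Mettl14 in 2. No population tagged Mettl3, Zc3h13, Cbll1 or Mettl16. With an adjusted p under 0.05 in place of the unadjusted one, 14 of the 18 remained. Over all genes that threshold tagged from 136 of 16040 in BCSP, the fewest, to 1764 of 16541 in HEC, the most. Of the 19 other pathway genes, 3 were tagged in SSC, 2 in BCSP and 1 in each of the other populations. The shares over all genes were 10.4% in SSC, 6.67% in BCSP and 10.6% to 14.5% in the others. Trmt112 was tagged in 6 populations and the reader Ythdf1 in SSC (1.51 ± 0.24), pBCSP (1.73 ± 0.22) and BCSP (1.32 ± 0.29). Virma (listed as 1110037F02Rik), which holds the complex together, was tagged in BCSP (1.23 ± 0.33, adjusted p = 0.086, edgeR), and the nuclear reader Ythdc1 in SSC (1.02 ± 0.32, adjusted p = 0.099).

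The GGACT sequence, a common form of the site that the METTL3 complex methylates, was counted in the longest protein-coding transcript of each member (GENCODE vM21, GRCm38, forward strand of the transcript), and the matches of the most often tagged members, Wtap and Rbm15, are shown in capitals with their neighbouring bases because their ratios lead the results below.
Wtap, chr17:12975052-12975072: atgccgtcGGACTattccgaa
Wtap, chr17:12974767-12974787: aagactgtGGACTtcatgatt
Wtap, chr17:12974707-12974727: cctttaaaGGACTtacttatg
Wtap, chr17:12974516-12974536: ttaaccaaGGACTgtacaaac
Wtap, chr17:12973669-12973689: gctttagtGGACTgactgtgg
Wtap, chr17:12972734-12972754: aggagaggGGACTtaggagta
Rbm15, chr3:107332883-107332903: ggcggtgaGGACTccagttct
Rbm15, chr3:107331182-107331202: ggtgatcgGGACTtgcccagc

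All 6 matches of Wtap fall in the 3′ UTR of this 1 transcript, on the minus strand of chromosome 17 from chr17:12975052-12975072 to chr17:12972734-12972754. That transcript has 3187 bases, where the merged exons of Wtap have 6248, and its position 808 is already 3′ UTR. Other transcripts of a member, which can place the same bases in another region, were not searched. The regions and densities given here are those of 1 transcript per gene. Both matches of Rbm15 fall in its coding sequence, at chr3:107332883-107332903 and chr3:107331182-107331202, also on the minus strand. Wtap held 1.88 matches per kb and Rbm15 0.46, where the median of 15325 protein-coding genes was 1.06 and the quartiles were 0.654 and 1.53. Mettl3 held 1.98 per kb, 4 matches of which 3 are coding, Mettl14 0.69, Zc3h13 1.14, Mettl16 1.11, Cbll1 1.27 and Rbm15b 0.92. The order of the members by matches was not their order by IP ratio, since Mettl3 had the most per kb and no tag, and Rbm15 the fewest and the most tags. A match is a stretch of letters and not a measured site.

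**Figure D2:**
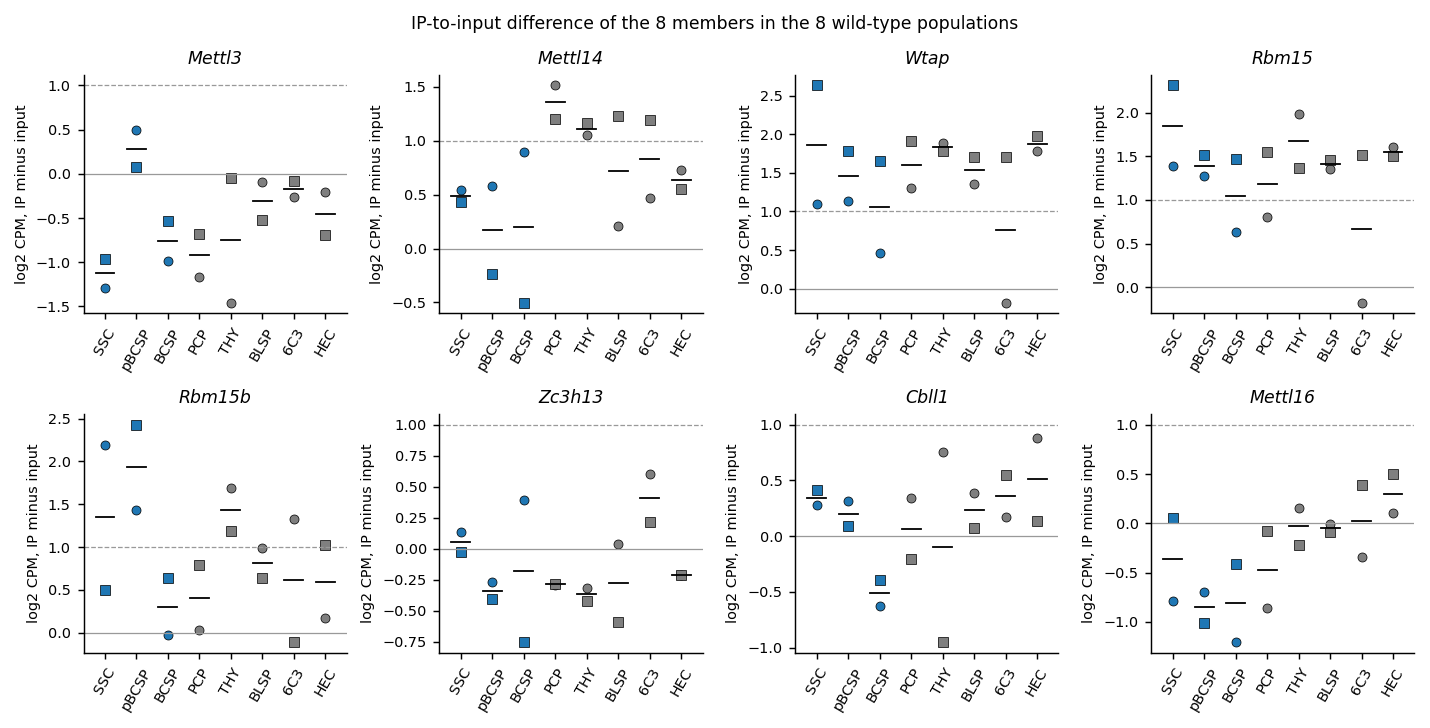
IP-to-input difference of the 8 members in the 8 wild-type populations. The y axis is log2 CPM in IP minus log2 CPM in input of the same replicate, circles are replicate 1, squares are replicate 2, bars are means, and lines mark 0 and 1; Wtap and Rbm15 lie above 0 in 15 of 16 pairs each, and Mettl3 in 2 of 16.

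Wtap was enriched in IP in nearly every WT pair of libraries. Its log2 ratio (log2 CPM in IP minus that in input of the same replicate) ran from -0.18 to 2.63, with a median of 1.71, and was above 0 in 15 of 16 pairs. In the edgeR fits the log2 fold change was 1.90 ± 0.39 in SSC, 1.53 ± 0.20 in pBCSP, 1.54 ± 0.27 in PCP, 1.86 ± 0.16 in THY, 1.47 ± 0.15 in BLSP and 1.95 ± 0.14 in HEC, with adjusted p-values from 0.00018 to 0.045. In BCSP it was 0.96 ± 0.41 (adjusted p = 0.218), and with IP and input paired by replicate it passed the tagging threshold, at 1.09 (adjusted p = 0.078, edgeR). It also passed without the input of replicate 1 (1.72, adjusted p = 0.028) or the IP of replicate 2 (1.01, adjusted p = 0.104). In 6C3 it was 0.51 ± 0.49 (adjusted p = 0.479), and without the input library of replicate 1 it was 1.58 (adjusted p = 2.6e-07, edgeR). That input library is the one with 298 CPM of Wtap, and its own pair gave the lowest ratio, -0.18, against 1.71 in replicate 2.

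Rbm15 had a like ratio. It ran from -0.18 to 2.31, with a median of 1.46, and was above 0 in 15 of 16 pairs. Fitted fold changes (log2, edgeR) of tagged populations ran from 1.03 ± 0.31 in BCSP (adjusted p = 0.107) and 1.22 ± 0.39 in PCP (adjusted p = 0.095) to 1.93 ± 0.27 in SSC (adjusted p = 0.029). The tag in BCSP was lost without the input of replicate 2 (0.66, adjusted p = 0.566), and that in PCP without the input of replicate 1 (0.94, adjusted p = 0.230) or the IP of replicate 2 (0.59, adjusted p = 0.245). In 6C3 the fold change was 0.57 ± 0.40 (adjusted p = 0.338), and without the input of replicate 1 it was 1.24 (adjusted p = 0.00016). Rbm15b was tagged in SSC (1.44 ± 0.53, adjusted p = 0.138), pBCSP (1.99 ± 0.37, adjusted p = 0.021) and THY (1.43 ± 0.39, adjusted p = 0.036). Its tag in SSC was lost without the input of replicate 1 (1.03, adjusted p = 0.716) or the IP of replicate 1 (0.93, adjusted p = 0.101), and its tag in THY without the input of replicate 1 (1.15, adjusted p = 0.357).

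The catalytic pair was split. Mettl14 was tagged in PCP (1.31 ± 0.34, adjusted p = 0.055) and in THY (1.15 ± 0.31, adjusted p = 0.034, edgeR), and its ratio was above 0 in 14 of 16 pairs with a median of 0.65. The tag in PCP was lost without the input of replicate 1 (1.06, adjusted p = 0.382), and that in THY without the input of either replicate (1.11 in both, adjusted p = 0.302 and 0.284), with library size alone (0.99, adjusted p = 0.053) and without the filter on low counts (0.98, adjusted p = 0.095). Without the IP of replicate 1 of BLSP, Mettl14 was tagged there at 1.22 (adjusted p = 0.00053), and without the input of replicate 1 of 6C3 it was tagged there at 1.16 (adjusted p = 0.086). Mettl3 was below 0 in 14 of 16 pairs, with a median of -0.53 and a range from -1.46 to 0.49. Its most negative fitted value was -1.03 ± 0.43 in SSC (adjusted p = 0.177), and its only positive one was 0.35 ± 0.31 in pBCSP (adjusted p = 0.477, edgeR). Zc3h13 and Mettl16 had medians of -0.24 and -0.15, with 5 of 16 pairs above 0 each, and Cbll1 had a median of 0.23 with 12 of 16 above 0.

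Whether a ratio differed among the 8 populations was tested by the interaction of IP with population over the 32 WT libraries. For none of the 8 members did it, at an adjusted p under 0.05 in edgeR, beside 0.485% of 25365 genes. The smallest adjusted p-values were 0.860 for Wtap and 0.870 for Rbm15, the unadjusted p of none of the 8 was under 0.05, and DESeq2 called none. Without the filter on low counts Wtap passed at an adjusted p of 0.048. A tag called in one population and not in another is therefore not shown to differ between them.

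The spread between libraries differed between input and IP. Over the 16 WT replicates the SD of Wtap on the log2 CPM scale was 0.59 in input and 0.29 in IP, and its range was 2.68 and 1.03. For Rbm15 the SD was 0.50 and 0.45 and the range 1.65 and 1.94, so that neither kind of library was more variable by both measures. For Mettl3 the SD was 0.37 in input and 0.65 in IP. Without replicate 1 of 6C3, a setting added after the values were seen, the SD of Wtap was 0.40 in input and 0.30 in IP and its range 1.71 and 1.03. In the same setting the SD was 0.43 and 0.45 for Rbm15, and 0.39 and 0.68 for Mettl3.

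**Figure D3:**
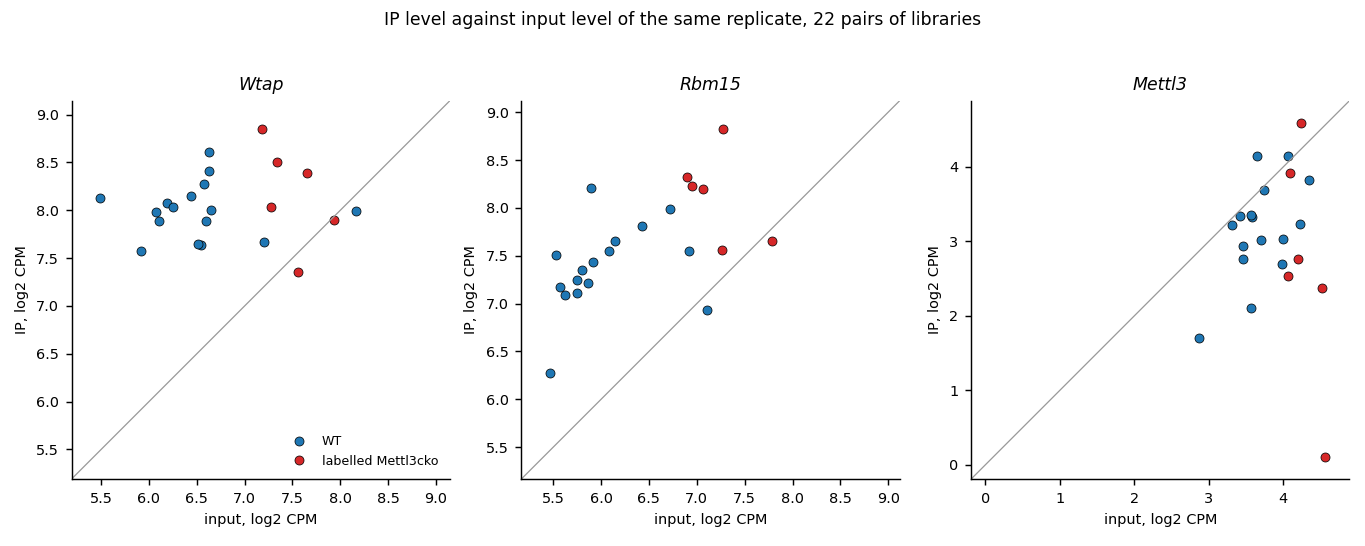
IP level against input level of Wtap, Rbm15 and Mettl3. Each point is the IP and input library of a replicate (log2 CPM on both axes), blue is WT, red is labelled Mettl3cko, and the grey line marks equal levels; Wtap points spread along the input axis, and the red points lie to the right of most blue points for Wtap and Rbm15.

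The third question was how the writer genes respond where Mettl3 is labelled as deleted. Over SSC, pBCSP and BCSP together, 4 of the 8 members rose in input of the libraries labelled Mettl3cko and none fell, beside 3.83% of 18655 genes called higher and 2.64% called lower at an adjusted p under 0.05 (edgeR, 12 input libraries, population as covariate). The 4 were the adaptor Wtap, the RNA-binding Rbm15, the zinc finger subunit Zc3h13 and the separate methyltransferase Mettl16. All 8 fitted differences were above 0, with a median of 0.38 on the log2 scale, where the median over all genes was -0.04. The fit takes the 12 libraries as independent. Populations of the same replicate number may come from the same animals, which the labels do not say. In that case the p-values of this fit would be too small. Library size alone and DESeq2's size factors as scaling called the same number, 4, whereas 2 were called without the filter on low counts and 1 to 3 on leaving out any 1 of the 12 libraries, with the lowest count without replicate 2 of WT SSC. Population by population, the call was a log2 difference beyond 0.5 with an unadjusted p under 0.05. By it SSC had 4 members higher, beside 6.96% of all genes. The count was 2 for pBCSP, beside 3.88%, and 1 for BCSP, beside 7.22%. No member was lower, beside 7.07% of all genes in SSC, 4.48% in pBCSP and 5.72% in BCSP. No member, and no gene of those tested, had an adjusted p under 0.05 in a single population in edgeR, where 2363, 1341 and 2123 genes had an unadjusted p under 0.05.

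**Figure D4:**
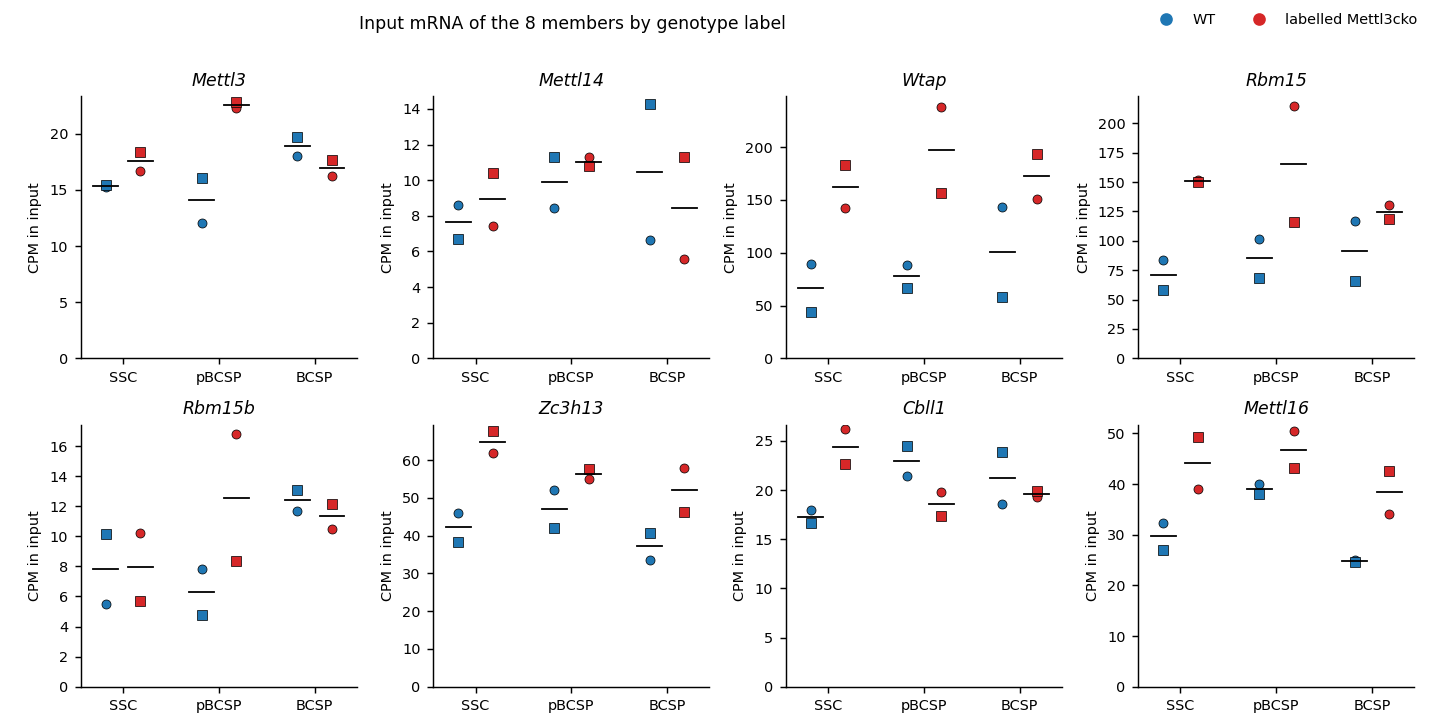
Input mRNA of the 8 members by genotype label. The y axis is CPM from 0, blue is WT, red is labelled Mettl3cko, circles are replicate 1, squares are replicate 2, and bars are means; for Wtap, Rbm15 and Zc3h13 the red points lie above the blue points in SSC, pBCSP and BCSP, and Mettl3 is not lower in red in SSC or pBCSP.

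Wtap had the largest difference of the 8. It was at 142 and 183 CPM in SSC of the libraries labelled Mettl3cko, against 89.8 and 43.8 CPM in WT. In pBCSP it was at 238 and 157 CPM against 88.5 and 66.5 CPM. In BCSP it was at 151 and 194 CPM against 142.9 and 58.6 CPM. The groups did not overlap within any of the 3 populations, although the gap in BCSP was small. The share of all genes whose groups separate in this way was not counted, for this member or the others. Pooled over the 3 populations, the ranges of WT and of libraries labelled Mettl3cko overlapped for all 8 members. The common log2 difference was 1.15 ± 0.23 (adjusted p = 0.010, edgeR), and the values by population were 1.29 ± 0.34 in SSC (adjusted p = 0.193), 1.36 ± 0.29 in pBCSP (adjusted p = 0.569) and 0.78 ± 0.39 in BCSP (adjusted p = 0.465). The BCSP value was 1.56 (adjusted p = 0.421) without replicate 1 of WT BCSP and 0.94 (adjusted p = 0.358) without replicate 1 of the libraries labelled Mettl3cko, both past the threshold on the unadjusted p.

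Rbm15 was at 152 and 150 CPM in SSC labelled Mettl3cko, against 83.3 and 58.1 CPM in WT. In pBCSP it was at 215 and 116 CPM against 101.6 and 68.4 CPM, and in BCSP at 130.2 and 119 CPM against 117 and 65.8 CPM. As for Wtap, no WT library reached those labelled Mettl3cko of its population, and the distance in BCSP was a few CPM. The common log2 difference was 0.84 ± 0.20 (adjusted p = 0.020, edgeR). It was 0.75 (adjusted p = 0.055) without replicate 2 of WT SSC, the only single library whose loss ended the call. By population it was 1.09 ± 0.22 in SSC (adjusted p = 0.161), 0.98 ± 0.37 in pBCSP (adjusted p = 0.569) and 0.45 ± 0.30 in BCSP (adjusted p = 0.595). The pBCSP call was lost without replicate 2 of WT (0.72, adjusted p = 1.0) or replicate 1 labelled Mettl3cko (0.46, adjusted p = 0.571), and BCSP passed without replicate 1 of WT (0.92, adjusted p = 0.475).

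Zc3h13 was at 61.9 and 67.7 CPM in SSC labelled Mettl3cko, against 46.1 and 38.3 CPM in WT. In pBCSP it was at 55.1 and 57.7 CPM against 52.0 and 42.1 CPM, and in BCSP at 58.0 and 46.3 CPM against 33.5 and 40.8 CPM. The 2 groups were apart in each population. The common log2 difference was 0.47 ± 0.13 (adjusted p = 0.041, edgeR). Leaving out any single library except replicate 1 of WT pBCSP or of pBCSP labelled Mettl3cko ended this call, with differences of 0.42 to 0.50 and adjusted p-values of 0.056 to 0.135. In SSC alone the difference was 0.62 ± 0.20 (adjusted p = 0.239), and without replicate 2 of WT it was 0.50 (adjusted p = 0.849) and without replicate 2 labelled Mettl3cko 0.53 (adjusted p = 0.353), and neither passed.

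Mettl16 was at 39.1 and 49.3 CPM in SSC labelled Mettl3cko against 32.3 and 27.0 CPM in WT, at 50.4 and 43.1 CPM in pBCSP against 40.0 and 38.0 CPM, and at 34.1 and 42.7 CPM in BCSP against 25 and 24.7 CPM. It too was apart in each population. The common log2 difference was 0.50 ± 0.13 (adjusted p = 0.036, edgeR). Leaving out any single library except replicate 2 of pBCSP labelled Mettl3cko ended the call, with differences of 0.44 to 0.53 and adjusted p-values of 0.052 to 0.115. By population it was 0.57 ± 0.23 in SSC (adjusted p = 0.318), 0.27 ± 0.23 in pBCSP (adjusted p = 0.800) and 0.63 ± 0.25 in BCSP (adjusted p = 0.357). The SSC call was lost without either WT library (0.72 and 0.46, adjusted p = 0.577 and 0.877) or replicate 2 labelled Mettl3cko (0.38, adjusted p = 0.558), and with library size alone (0.56, adjusted p = 0.355), and the BCSP call without any of its 4 libraries (0.46 to 0.77, adjusted p = 0.473 to 0.656).

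The other members were not called. Mettl14 lay between 5.599 and 11.3 CPM in the libraries labelled Mettl3cko and between 6.63 and 14.3 CPM in WT, and Cbll1 between 17.4 and 26.2 CPM and between 16.6 and 24.5 CPM. Their common log2 differences were 0.04 ± 0.25 and 0.04 ± 0.16 (adjusted p = 0.962 and 0.942, edgeR). Rbm15b, between 5.71 and 16.8 CPM against 4.76 and 13.1 CPM, had a common difference of 0.30 ± 0.29 (adjusted p = 0.610), and in pBCSP it was 1.42 (adjusted p = 0.101, past the threshold on the unadjusted p) without replicate 2 labelled Mettl3cko, where the value with all libraries was 1.01 ± 0.51 (adjusted p = 0.649). Whether the effect of the label differed among the 3 populations was tested by an interaction of genotype with population over the 12 input libraries, a test added after the values were seen. No member passed in edgeR, with adjusted p-values of 0.941 or more, and none had an unadjusted p under 0.05. Of all 18655 genes tested, 0 passed and 839 had an unadjusted p under 0.05. The test therefore does not show that the effect was the same in the 3 populations.

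The promoters of the 4 members that rose together are shown, as listed by RefSeq for GRCm38.p6, from 250 bases before to 50 bases after the transcription start and 5′ to 3′ along the gene. Wtap is at chr17:12992494-12992793 (minus strand), Rbm15 at chr3:107333240-107333539 (minus strand), Zc3h13 at chr14:75284116-75284415 (plus strand) and Mettl16 at chr11:74770613-74770912 (plus strand). RefSeq's table held a promoter for 7 of the 8 members, and for Wtap (3 entries) and Zc3h13 (2 entries) the first entry is given. Capitals mark matches on either strand to any of the motifs spelled out in the next paragraph.
Wtap: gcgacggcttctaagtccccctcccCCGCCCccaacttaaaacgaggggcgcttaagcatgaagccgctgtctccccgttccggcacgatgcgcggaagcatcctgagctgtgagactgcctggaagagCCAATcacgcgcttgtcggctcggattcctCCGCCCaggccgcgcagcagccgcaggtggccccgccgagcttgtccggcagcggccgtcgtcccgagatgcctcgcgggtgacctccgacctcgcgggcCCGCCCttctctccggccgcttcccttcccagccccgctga
Rbm15: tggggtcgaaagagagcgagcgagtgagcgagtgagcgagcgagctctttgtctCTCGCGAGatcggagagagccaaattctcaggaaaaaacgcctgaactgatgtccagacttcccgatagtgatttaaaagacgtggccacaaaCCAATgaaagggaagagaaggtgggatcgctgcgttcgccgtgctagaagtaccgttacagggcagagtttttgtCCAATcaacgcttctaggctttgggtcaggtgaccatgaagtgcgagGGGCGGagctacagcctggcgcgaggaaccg
Zc3h13: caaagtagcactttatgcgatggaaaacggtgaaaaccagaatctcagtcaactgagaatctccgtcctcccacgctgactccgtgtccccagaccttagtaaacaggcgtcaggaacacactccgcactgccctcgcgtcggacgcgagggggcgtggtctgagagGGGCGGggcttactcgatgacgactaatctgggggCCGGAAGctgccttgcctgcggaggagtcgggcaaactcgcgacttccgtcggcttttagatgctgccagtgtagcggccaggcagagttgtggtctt
Mettl16: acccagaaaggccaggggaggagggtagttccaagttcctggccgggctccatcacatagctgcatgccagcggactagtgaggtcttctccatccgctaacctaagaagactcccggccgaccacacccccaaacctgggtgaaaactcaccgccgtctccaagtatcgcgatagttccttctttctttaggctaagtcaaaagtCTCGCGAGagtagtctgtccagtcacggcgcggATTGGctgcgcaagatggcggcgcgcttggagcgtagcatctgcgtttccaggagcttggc

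None of the 4 promoters held TATAAA, which 14.2% of 27025 promoters of this length held. GGGCGG, a GC box, was in Wtap (3 matches), Rbm15 and Zc3h13 (1 each), and in 35.9% of all promoters. CCAAT was in Wtap, Mettl16 (1 each) and Rbm15 (2), and in 37.9% of all. The palindrome CTCGCGAG, chosen after these promoters had been read, was in Rbm15 and Mettl16 and in 0.958% of all. CCGGAAG, the core of an ETS site, was in Zc3h13 and not in the other 3, and in 9.12% of all. No motif was in all 4. Among members not called by genotype, CCGGAAG was also in Mettl3 and Cbll1 (1 each), and GGGCGG in Rbm15b (3) and Cbll1 (2). CTCGCGAG, CCAAT and TATAAA were in none of Mettl3, Rbm15b and Cbll1. A match describes letters only.

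Among the 19 other genes of the pathway, 3 rose in input over the 3 populations and none fell, beside 3.83% and 2.64% of all genes, with a median log2 difference of 0.19. They were the reader Ythdf2 (0.71 ± 0.11, adjusted p = 0.0019), the S-adenosylmethionine synthase Mat2a (0.66 ± 0.14, adjusted p = 0.013) and the RNA-binding Hnrnpc (0.56 ± 0.12, adjusted p = 0.013, all edgeR). By population the same threshold called 4 of 19 higher and none lower in SSC, beside 6.96% and 7.07% of all genes. It called 2 higher and 1 lower in pBCSP, beside 3.88% and 4.48%, and 3 higher and 1 lower in BCSP, beside 7.22% and 5.72%. The lower ones were the ribosomal RNA methyltransferase Zcchc4 in pBCSP (-1.42 ± 0.49, adjusted p = 0.569) and Pcif1, which methylates the base next to the cap, in BCSP (-0.60 ± 0.22, adjusted p = 0.331, edgeR).

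Globin genes moved with the label. The summed level of the 7 blood and immune genes was 25.2 to 46.2 CPM in the 6 input libraries labelled Mettl3cko and 13.6 to 24.4 CPM in the 6 WT libraries of the same populations, so the groups did not overlap. Hba-a1 ran from 3.95 to 19.4 CPM against 0.154 to 2.71 CPM, and Hbb-bs from 1.60 to 6.04 CPM against 0 to 0.969 CPM. The other blood genes overlapped: Cd79a at 1.08 to 2.91 against 1.77 to 4.199 CPM, Lyz2 at 0.0666 to 10.53 against 2.13 to 9.24 CPM and Cd68 at 9.72 to 17.5 against 4.70 to 19.1 CPM. Ptprc was at 0 in 5 of 6 libraries labelled Mettl3cko and in 6 of 6 WT libraries, and Cd3e was at 0 in all 12. The summed level of the 5 endothelial genes, 0.906 to 18.4 CPM against 1.04 to 20.1 CPM, and that of the 5 cartilage genes, 52957 to 90363 CPM against 79033 to 93098 CPM, overlapped. The part of globin or other blood RNA in the differences was not tested.

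Finally, the IP-to-input ratio of the members was compared between the genotype labels. No member passed an adjusted p of 0.05 in the interaction of genotype with IP over 24 libraries of SSC, pBCSP and BCSP (edgeR), beside 2.33% of 20360 genes. No unadjusted p was under 0.05 and DESeq2 also called none. The median over all genes was itself -0.38 on the log2 scale, and the values below are read against it. Wtap was at -0.67 ± 0.36 (adjusted p = 0.357), Rbm15 at -0.47 ± 0.32 (adjusted p = 0.496), Zc3h13 at -0.58 ± 0.54 (adjusted p = 0.653) and Mettl16 at -0.71 ± 0.47 (adjusted p = 0.468). Mettl3 was at -0.92 ± 0.69 (adjusted p = 0.545) and Mettl14 at -0.23 ± 0.97 (adjusted p = 0.986). Cbll1 and Rbm15b had positive values, 0.09 ± 0.44 (adjusted p = 1.0) and 0.65 ± 0.55 (adjusted p = 0.603). With the same replicate of IP and input as a pair, no member passed either.

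**Figure D5:**
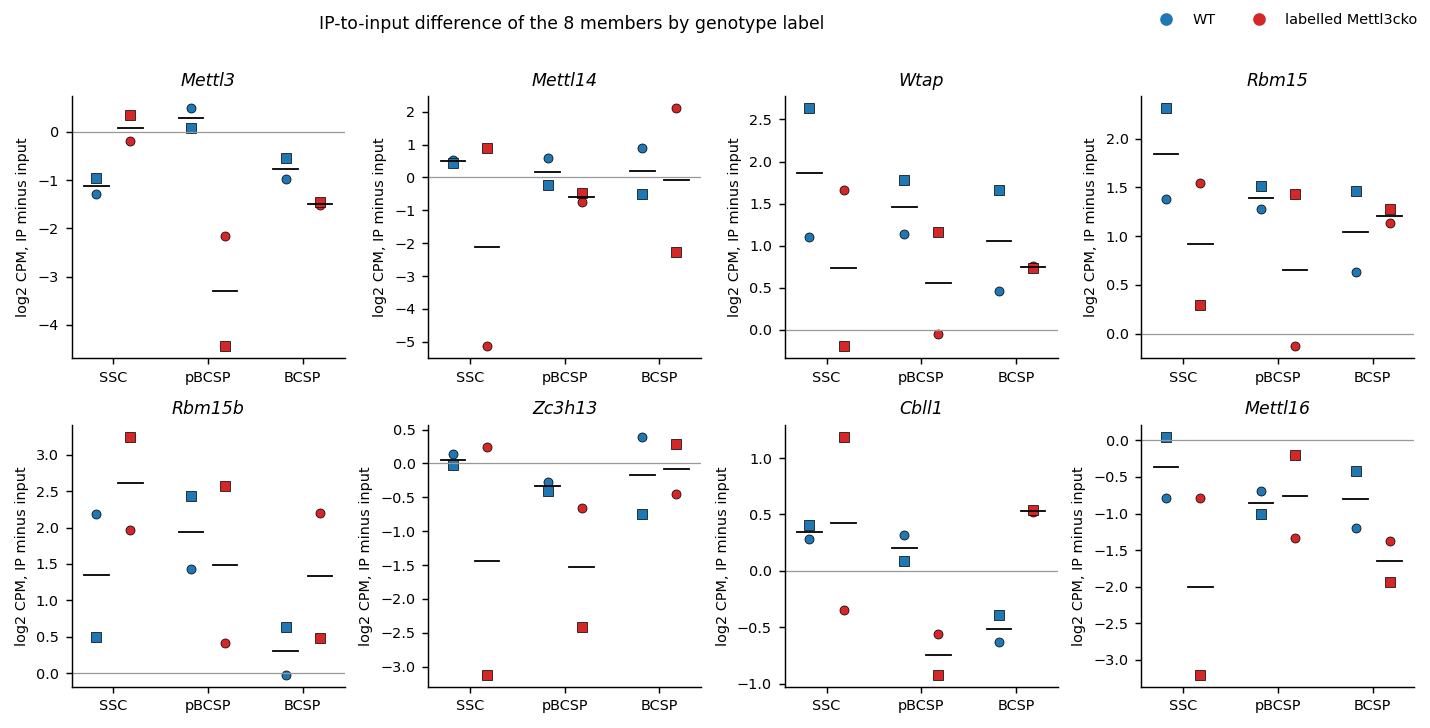
IP-to-input difference of the 8 members by genotype label. The y axis is log2 CPM in IP minus log2 CPM in input of the same replicate, blue is WT, red is labelled Mettl3cko, circles are replicate 1, squares are replicate 2, and bars are means; red replicates lie far apart for Mettl14 in SSC and BCSP and for Mettl3 in pBCSP.

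Replicates labelled Mettl3cko were far apart for most members. Mettl14 had log2 ratios of -5.14 and 0.89 in SSC, where the IP library of the first replicate held 3 counts of the gene, and of 2.11 and -2.27 in BCSP. Mettl3 was at -2.16 and -4.45 in pBCSP, and the second of these rests on 27 IP counts. For Wtap the SSC pairs had ratios of 1.66 and -0.20, the pBCSP pairs -0.04 and 1.17, and the BCSP pairs 0.76 and 0.74. In BCSP, where its replicates were close, Wtap was still above 0 with the label Mettl3cko. Rbm15 was above 0 in 5 of 6 pairs labelled Mettl3cko, with a median of 1.20 against 1.42 in the 6 WT pairs of the same populations, and Rbm15b in 6 of 6, with a median of 2.08 against 1.04. Mettl16 was below 0 in all 6, with a median of -1.35 against -0.74.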

How the data were processed

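Input and IP libraries were processed by the authors with fastp 0.20.1, HISAT2 2.2.1 and featureCounts 2.0.1 on GRCm38, per the submitters' processing notes, and the deposited table holds raw read counts per gene in 44 libraries. The strand and overlap settings of the counting are not given in the sources used here. The 2 deposited tables of the authors' own comparisons, which hold fold changes and p-values, were not used. Of 46959 entries, 128 whose names had been turned into dates (at most 0.39% of a library's counts) were left out. Depth ran from 16480027 to 44046651 counts.

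Counts were analysed with edgeR 4.0.16 (R 4.3.3, limma 3.58.1): filterByExpr, TMM scaling and the quasi-likelihood test over all genes of each comparison, with Benjamini-Hochberg adjustment. A call needed an adjusted p under 0.05, except for m6A-tagged (log2 fold change over 1 and p under 0.05) and genotype within a population (log2 fold change beyond 0.5 and p under 0.05), where the study's thresholds were used. Log2 CPM took a prior count of 2. Groups came from the sample titles. Nothing in the labels says that replicates were separate animals, so p-values measure the spread between these samples. Fits over several populations take every library as independent, and the labels do not say whether populations of the same number shared animals. IP and input of a number came from the same sorted cells per the study's methods, and their deviations correlated at 0.0437 to 0.483 over 11 conditions. Alternatives were DESeq2 1.42.0, its size factors in edgeR, library size alone, no filter, a replicate block and each library left out. The scripts were tested on simulated data. All 8 members were named by symbol, with pathway genes past a threshold and the 5 genes most like Mettl3. The members and lists were chosen with earlier results of these data known, and the interaction of genotype with population was added after the values were seen.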

Additional observations from a re-analysis of the deposited data

How the results depend on the processing

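Each condition had 2 replicates, which limits precision. No member that was called changed direction under any alternative. Counts of called members moved as follows. Across the 8 populations 1 member was called, 2 with DESeq2 and 3 without the filter on low counts (1 to 3 with a library left out). For the stem and progenitor contrast the count was 3, and 5 without the filter (2 to 5). It was 4 with DESeq2, where Cbll1 was added (adjusted p = 0.039), and 2 with library size alone, where Rbm15 was lost (adjusted p = 0.105, edgeR). For SSC against each population it was 5, and 3 without the filter (1 to 6). For tagging it was 18, with a range of 16 to 21 with a library left out. For the ratio across populations it was 0, and 1 without the filter (0 to 0). For genotype it was 4 in SSC and 0 at an adjusted p under 0.05 (2 to 4), 2 in pBCSP and 0 (1 to 3), and 1 in BCSP and 0 (0 to 2), where DESeq2, no filter and the replicate block gave 2 each. Over the 3 populations it was 4, and 2 without the filter (1 to 3). For the ratio by genotype it was 0 (0 to 0). The cause of these changes was not tested.

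Same-numbered WT and Mettl3cko inputs correlated in their deviations at -0.0496 to 0.0508, so they shared only a number. Among WT populations the correlation was 0.338 for SSC and pBCSP, 0.336 for pBCSP and BCSP and 0.177 for SSC and BCSP, and -0.441 to 0.338 over all 28 pairs of populations. Wtap and Rbm15 were higher in replicate 1 in all 3 of SSC, pBCSP and BCSP. With the replicate block over the WT inputs no member's call changed, and in the stem and progenitor contrast Wtap was at -0.43 (adjusted p = 0.068) and Rbm15 at 0.42 (adjusted p = 0.038, edgeR). With the replicate block, Wtap passed in BCSP by genotype (0.90, adjusted p = 0.287, edgeR), and the count of tagged pairs was 19 with IP and input paired. The block changed no other call of a member. In the genotype fits of input it joined WT and Mettl3cko libraries that shared only a number. Such a block cannot absorb a batch within a genotype, so unchanged calls there are no check of one.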
